A study of Homo sapiens with 45 samples.

Results

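TOX4, the reads assigned to its processed pseudogene TOX4P1, and 3 partners of the TOX4 protein were followed in RNAseq data from HCT116-VR cells. The 5 genes were found by symbol among the 15698 genes of the normalised expression matrix, and all 5 are listed there. The partners are PPP1R10, WDR82 and PPP1CA.

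TOX4 is a nuclear protein with a high mobility group box, which binds DNA. It is a subunit of the PTW/PP1 phosphatase complex, together with PNUTS (encoded by PPP1R10), the WD40 repeat protein WDR82 and a catalytic subunit of protein phosphatase 1 (PP1). PNUTS is the scaffold that binds the other subunits and targets PP1 to chromatin. The complex is known for removing phosphates from the transcription machinery, including RNA polymerase II and SPT5, around elongation and termination. A processed pseudogene is a copy of a spliced messenger RNA that was written back into the genome, so it lacks introns and can resemble its parent closely enough for short reads to be hard to place.

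HCT116-VR is a vorinostat-resistant derivative of HCT116, an established colorectal carcinoma cell line. The 45 libraries are labelled as mock transfection (lipid without siRNA) or as transfection with a pool of siRNAs against 1 of 14 genes (BEGAIN, CCNK, CDK10, DPPA5, EIF3L, GLI1, JAK2, NFYA, POLR2D, PSMD13, RGS18, SAP130, TGM5 or TOX4) at 40 nM. Each label has 3 libraries from independent experiments, cells were collected at 48 h, and the labels name no drug for any library. Between 7569592 and 21149597 reads per library fell on the listed genes (median 11551126).

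The labels did not match the target genes. Of the 14 siRNA targets, 11 are listed, and for 0 of these were the 3 libraries bearing the label the 3 with the lowest level of the target. Libraries were also compared over 2195 genes with a standard deviation (SD) of at least 0.75, leaving out the 5 genes described here. With 1 minus Pearson's r as the distance, 0 of 45 libraries had a library of its own label among its 2 nearest, while all 45 fell into sets of 3 that were each other's 2 nearest. Which library received which siRNA was therefore taken as unknown. Each library is named below as the library labelled so, values over all 45 libraries use no condition, and no library was given another one. Of 7 epithelial markers, 6 are listed, with EPCAM at a log2 value of 8.18 to 9.04 and KRT8 at 9.53 to 11.10. The lowest of the 6 was CDX2, at 3.71 to 4.73, and VIL1 is not listed. Of 5 markers of other cell types, COL1A1 alone is listed, at 2.19 to 4.42, a range that overlaps that of CDX2.

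On GRCh37 (GENCODE 44), TOX4 spans chr14:21944756-21967319 on the plus strand. TOX4P1 is at chr4:113377080-113378941 on the plus strand and consists of 1 exon of 1862 bases. Its sequence aligned over 1861 bases with the TOX4 transcript. The alignment began at the TOX4 start codon, covered 99.9% of the coding sequence and stopped short of the transcript's untranslated end. Only the annotated bases of TOX4P1 were aligned, so whether the copy extends beyond them was not examined. Identity was 96.1%, with 73 differing bases and 2 gaps of 1 base each. The alignment runs without a break across 8 of the 9 exon junctions of TOX4. Steps of 50 coding bases held between 0 and 4 differing bases (median 2), so the differences were spread along the gene rather than gathered in one block. The longest identical run was 97 bases.

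Junction sequences are shown because they match the pseudogene in a way that the TOX4 gene does not. In the genome, a junction sequence of TOX4 is broken by an intron, while the same letters lie unbroken in TOX4P1. The 60 bases around 3 junctions are printed 5′ to 3′ for both genes, with bases that differ between them in capitals. They are the junction with no difference, 1 of the 2 junctions with 1 difference (the other joins exons 7 and 8) and the junction with the most differences, among the 7 with 30 coding bases on both sides. Exons 8 and 9 of TOX4 meet at chr14:21963522-21963551 and chr14:21964704-21964733, which corresponds to chr4:113378855-113378914 in the pseudogene, and the sequences are identical:
TOX4 exons 8 and 9: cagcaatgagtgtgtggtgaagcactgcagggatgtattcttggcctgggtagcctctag
TOX4P1: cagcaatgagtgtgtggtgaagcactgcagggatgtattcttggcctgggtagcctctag

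Exons 5 and 6 meet at chr14:21957533-21957562 and chr14:21960455-21960484, opposite chr4:113377860-113377919, with 1 differing base:
TOX4 exons 5 and 6: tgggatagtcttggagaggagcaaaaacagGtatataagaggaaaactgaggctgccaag
TOX4P1: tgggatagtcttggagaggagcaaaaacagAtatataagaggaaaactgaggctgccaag

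Exons 3 and 4 meet at chr14:21955823-21955852 and chr14:21956749-21956778, opposite chr4:113377368-113377427, with 6 differing bases:
TOX4 exons 3 and 4: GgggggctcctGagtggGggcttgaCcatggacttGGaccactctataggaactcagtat
TOX4P1: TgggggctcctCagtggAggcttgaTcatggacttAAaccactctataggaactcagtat

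The length of the reads is not given in the sources used here, so exact matches were counted for 4 lengths. Of the 36-base windows of TOX4P1, 396 of 1827 (21.7%) occur letter for letter in the TOX4 transcript. This share was 10.5% for 50 bases, 2.3% for 75 bases and 0% for 100 bases. Only exact matches were counted, so these shares do not cover reads that are placed with mismatches. Most shared windows lay within exons, since 353 of the 396 at 36 bases also occur in the unspliced TOX4 gene. The other 43 match the spliced transcript only, across a junction. At 75 bases this held for 16 of the 41 shared windows.

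**Figure D1:**
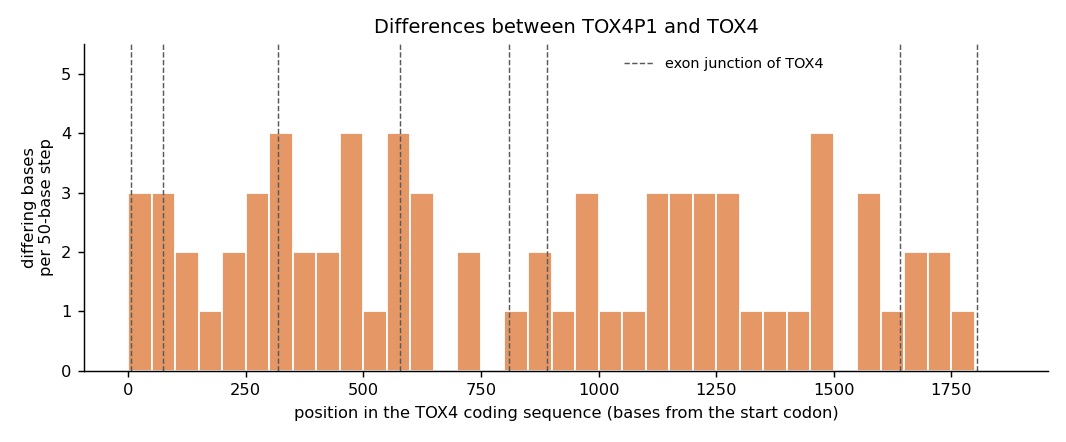
Bars give the number of bases that differ between TOX4P1 and TOX4 in each 50-base step of the TOX4 coding sequence, with the position counted in bases from the start codon, and dashed lines mark exon junctions of TOX4. Each step held 0 to 4 differing bases, and 4 full steps held none.

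TOX4 levels divided the 45 libraries into 3 very low ones and 42 others. Levels are given as deposited, on the log2 CPM scale, with the reads behind them. TOX4 was at 0.21 (15 reads) in the library labelled siSAP130 replicate 3, at 0.78 (19 reads) in that labelled siTOX4 replicate 2 and at 0.82 (24 reads) in that labelled siTGM5 replicate 2. Relative to the median of all 45 libraries (6.09) these are 1.70%, 2.53% and 2.59% on the linear scale. The other 42 libraries lay between 5.82 and 6.97, with 567 to 1632 reads, and the step of 5.00 log2 units between the third and the fourth lowest library held no library. Thus 1 of the 3 very low libraries bears the siTOX4 label, and the other two bear different ones.

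The 3 libraries resembled each other in genes other than the 5 described here. Each had the other two as its 2 nearest libraries, at distances of 0.0704, 0.0711 and 0.0802, while the third nearest library was at 0.0998 to 0.1057. At the top of the range, TOX4 was at 6.88 in the library labelled mock replicate 2, at 6.92 in siPOLR2D replicate 3 and at 6.97 in siCDK10 replicate 2. These 3 were also each other's 2 nearest libraries, and none of them shares a label. What they have in common was not tested.

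TOX4P1 followed TOX4 in both directions. It received 1 read in the library labelled siSAP130 replicate 3 (-3.16), 2 reads in siTGM5 replicate 2 (-2.48) and 4 reads in siTOX4 replicate 2 (-1.33). In the other 42 libraries it had 40 to 154 reads, with log2 values of 2.15 to 3.57. The first 2 of these counts do not exceed 3 reads, the number that a gene counted at 0 could still have. The 2 highest libraries for TOX4P1, labelled siCDK10 replicate 2 (154 reads) and mock replicate 2 (153 reads), also had the 2 highest TOX4 read counts, 1632 and 1598.

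The share of reads that went to the pseudogene stayed within narrow bounds in the 42 libraries above the 3 very low ones. Of the reads assigned to either gene, TOX4P1 held 6.49% to 11.1% (median 8.71%) in the 42 libraries. In the 3 very low libraries its share was 6.25% (siSAP130 replicate 3), 17.4% (siTOX4 replicate 2) and 7.69% (siTGM5 replicate 2). Their 95% exact binomial (Clopper-Pearson) intervals were 0.158% to 30.2%, 4.95% to 38.8% and 0.946% to 25.1%. All 3 intervals hold the median of the other libraries, so a different share was not detectable at this depth. These intervals cover counting error only. Whether the TOX4P1 reads came from the pseudogene or from TOX4 transcripts cannot be read from gene totals and was not tested. The sequences of the siRNAs were not used here.

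**Figure D2:**
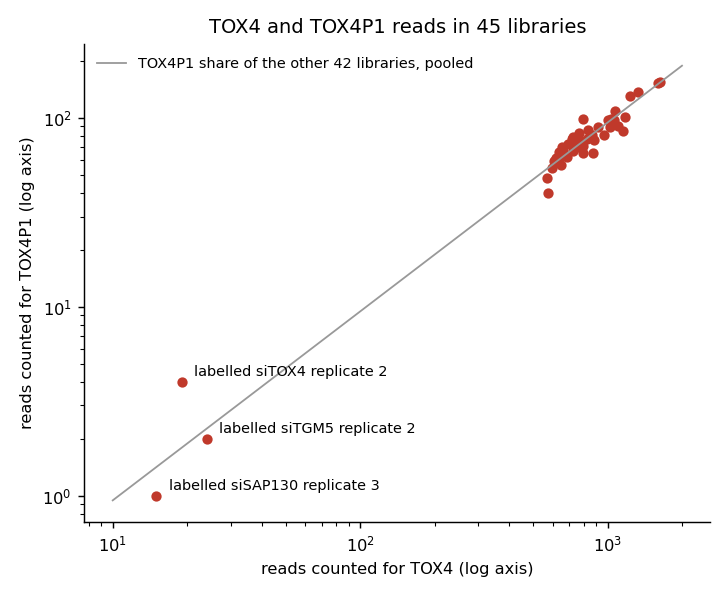
Each point is 1 of 45 libraries, with reads counted for TOX4 on the horizontal and for TOX4P1 on the vertical axis, both logarithmic, and the line is the pooled TOX4P1 share of the 42 libraries with 567 or more TOX4 reads. The 3 libraries at 15 to 24 TOX4 reads had 1 to 4 TOX4P1 reads. Their TOX4P1 shares were 6.25%, 17.4% and 7.69%, beside 8.62% for the line.

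PPP1R10, which encodes the scaffold PNUTS, did not show the pattern of TOX4. It ranged from 5.91 to 7.17 (median 6.85) over the 45 libraries. In the 3 libraries with very low TOX4 it was at 6.64, 6.89 and 6.76 (siSAP130 replicate 3, siTOX4 replicate 2 and siTGM5 replicate 2), which is 86.5% to 103% of its median level. These are ranks 9, 29 and 12 from the lowest.

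The lowest PPP1R10 levels were found in 6 other libraries. They were at 5.91 (labelled siTGM5 replicate 3), 5.99 (siRGS18 replicate 2), 6.03 (siTGM5 replicate 1), 6.05 (siDPPA5 replicate 3), 6.16 (siCCNK replicate 1) and 6.19 (siPSMD13 replicate 2). The next library was at 6.61, so that the widest step in the order of PPP1R10 (0.42) lay just above them. The libraries labelled siTGM5 replicate 3, siRGS18 replicate 2 and siDPPA5 replicate 3 were each other's 2 nearest, as were siTGM5 replicate 1, siCCNK replicate 1 and siPSMD13 replicate 2. TOX4 was at 5.86 to 5.90 in the first of these sets and at 6.30 to 6.37 in the second, both within the range of the 42 libraries.

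WDR82, which recognises the phosphorylated tail of RNA polymerase II and is shared with the SET1 histone methyltransferase complexes, had a narrower range. It ranged from 7.56 to 8.45 (median 8.16). In the 3 libraries with very low TOX4 it was at 8.26, 8.13 and 8.26, or 97.9% to 108% of its median level. The 7 lowest libraries were at 7.56 to 7.80 and bear 6 labels, among them siTOX4 replicate 1 (7.66) and mock replicate 1 (7.80). Of these 7, the libraries labelled siCDK10 replicate 3, siSAP130 replicate 1 and mock replicate 1 were each other's 2 nearest. So were those labelled siTOX4 replicate 1, siSAP130 replicate 2 and siBEGAIN replicate 1. The remaining library was labelled siPOLR2D replicate 3 (7.73). The highest WDR82 level (8.45) was in the library labelled mock replicate 3, so the libraries labelled mock held ranks 7, 9 and 45 from the lowest. Of the WDR82 pseudogenes, 2 are listed, WDR82P1 at 2.62 to 3.75 and WDR82P2 at 2.16 to 3.19, and neither had a gap in its range like that of TOX4P1 (widest steps 0.12 and 0.08).

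PPP1CA, which encodes the alpha catalytic subunit of PP1, had the narrowest range of the 5 genes, from 7.66 to 8.37 (median 8.02). It was at 8.13, 8.11 and 8.07 in the 3 libraries with very low TOX4, or 104% to 108% of its median level. Its 4 lowest libraries were labelled siSAP130 replicate 2 (7.66), siTOX4 replicate 1 (7.70), siTOX4 replicate 3 (7.77) and siBEGAIN replicate 1 (7.77). Those labelled siSAP130 replicate 2, siTOX4 replicate 1 and siBEGAIN replicate 1 were each other's 2 nearest libraries. None of the 4 was among the libraries with very low TOX4. The other catalytic subunits of the complex were at 7.60 to 8.63 (PPP1CB) and 8.44 to 9.16 (PPP1CC).

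**Figure D3:**
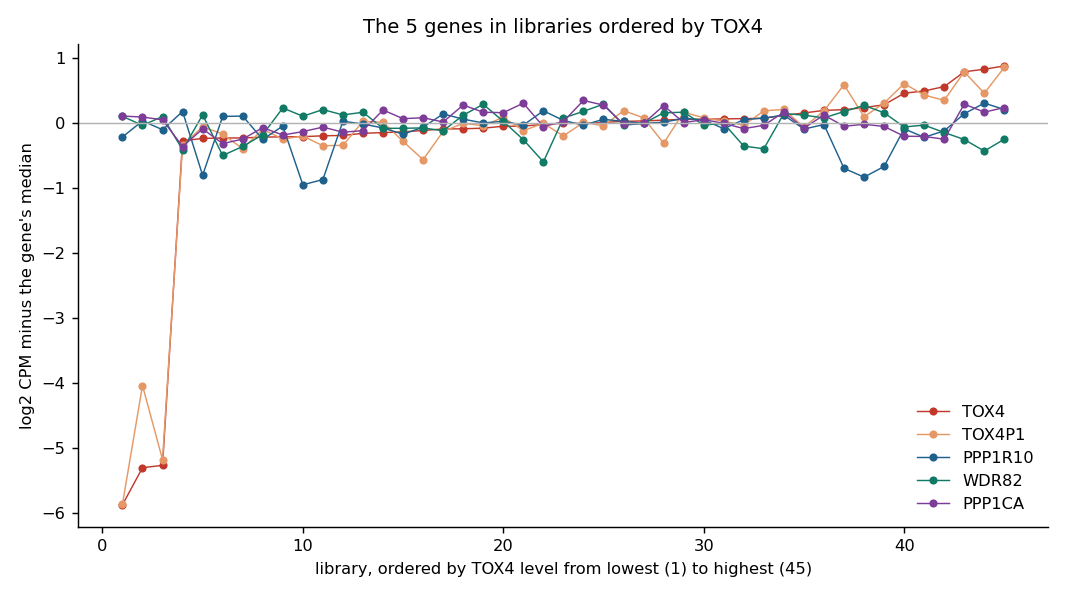
Libraries are placed along the horizontal axis by their TOX4 level, from lowest (1) to highest (45), and the vertical axis gives the log2 CPM of each gene minus its own median over the 45 libraries. TOX4 and TOX4P1 lie at 1.70% to 6.08% of their median linear levels in the first 3 libraries, where PPP1R10, WDR82 and PPP1CA lie at 86.5% to 108%.

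Set beside all genes, the 5 differed widely in how much they varied. The SD over the 45 libraries was 1.43 for TOX4, which ranked 121 of 15698 genes, and 1.33 for TOX4P1 (rank 241). It was 0.30 for PPP1R10, 0.23 for WDR82 and 0.17 for PPP1CA, against a median of 0.40 over all genes. PPP1CA varied less than most genes, as 2.06% of all genes had a lower SD. The SDs of TOX4 and TOX4P1 rest on the 3 very low libraries, since the median absolute deviation (scaled to an SD) was 0.24 and 0.29. By that measure the order of the partners was different, with 0.22 for WDR82, 0.17 for PPP1CA and 0.12 for PPP1R10, which was the least variable of the 5.

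Per length, PPP1CA was the most abundant of the 5. The median linear level per kilobase of annotated exon was 63.5 CPM for PPP1CA, 49.9 CPM for WDR82, 22.2 CPM for PPP1R10, 9.61 CPM for TOX4 and 3.50 CPM for TOX4P1. Exon lengths are those of GENCODE 44 (1862 to 7076 bases), which may differ from the annotation used for counting. Genes on the opposite strand that are also listed overlap 7.24% of the TOX4 exon bases (METTL3 and RAB2B), 5.65% of those of PPP1CA (RAD9A) and 0.77% of those of WDR82 (GLYCTK). Whether the counting used strand is not given in the sources used here, so reads in these stretches cannot be told apart.

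Likeness to TOX4 was measured over the 45 libraries as a description. No p-value is given, because the libraries differ in depth and share conditions that are not known. TOX4P1 had the highest Spearman's rho of 15694 genes (0.85), followed by MOGS (0.84), which encodes the first glucosidase of N-glycan trimming, and YIF1A (0.82), a protein of transport between endoplasmic reticulum and Golgi. The lowest were WDR12 (-0.83), a ribosome biogenesis factor, CLASP1 (-0.80), which binds microtubule ends, and PROS1 (-0.78), which encodes the anticoagulant protein S. By Pearson's r, which gives weight to the 3 very low libraries, TOX4P1 was again first (0.99), before SLC25A32 (0.90), a mitochondrial folate and flavin carrier, and DNM2 (0.89), a dynamin that cuts membrane vesicles.

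These genes reached their likeness in different libraries. SLC25A32 was at 5.13, 5.04 and 5.19 in the libraries labelled siSAP130 replicate 3, siTOX4 replicate 2 and siTGM5 replicate 2, its 3 lowest values of 45, against a median of 6.72. DNM2 was at 5.98, 6.15 and 6.21 there, also its 3 lowest, against a median of 7.26. Both genes were chosen for a high r, to which these libraries give weight, so their low values there follow in part from the choice. Without the 3 libraries farthest from the TOX4 median, which are these, r was 0.147 for SLC25A32 and 0.344 for DNM2. The rho of SLC25A32 was 0.236 with all libraries and 0.06 without the 3, and that of DNM2 was 0.345 and 0.20. YIF1A did the opposite, with ranks 9, 23 and 15 from the lowest in the 3 libraries and a rho of 0.85 without them. TOX4P1 had a rho of 0.82 without them (rank 4), so it was like TOX4 with and without the very low libraries.

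The 3 partners followed here were not like TOX4 in this sense. Spearman's rho with TOX4 was 0.12 for PPP1R10, -0.03 for WDR82 and 0.18 for PPP1CA, where the middle 90% of all genes lay between -0.45 and 0.43. Without the 3 libraries it was 0.07, -0.01 and 0.27. Of the other catalytic subunits of the complex, PPP1CC lay above that middle range, with a rho of 0.47 (0.53 without the 3 libraries). PPP1CB lay at its lower edge, with -0.445 (-0.42 without them). Among the partners themselves, rho was -0.46 between PPP1R10 and WDR82, 0.25 between PPP1R10 and PPP1CA, and 0.14 between WDR82 and PPP1CA.

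**Figure D4:**
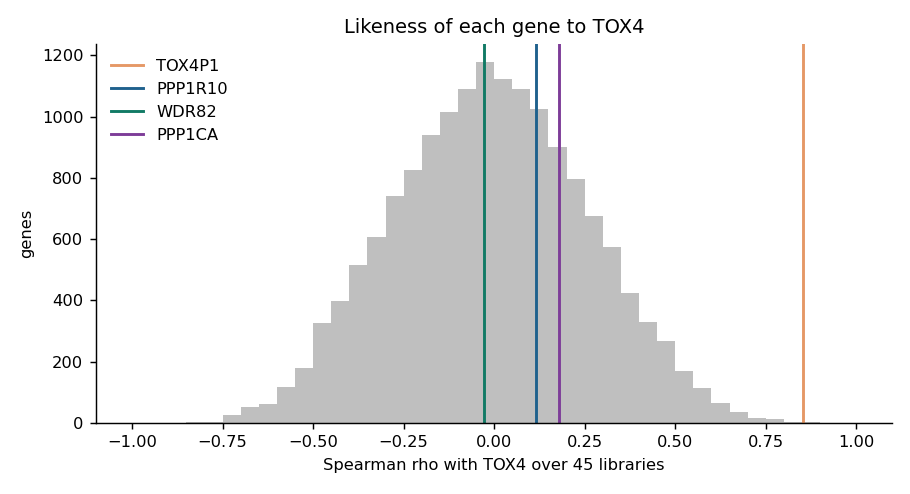
Grey bars count genes by their Spearman's rho with TOX4 over 45 libraries (15694 genes) and coloured lines mark TOX4P1 and the 3 partners. TOX4P1 lies at 0.85 at the edge of the distribution, and the partners lie at -0.03 to 0.18 near its centre.

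The study's design compares each siRNA with mock transfection, and this comparison was made by the labels as they stand. Because the labels go against the target genes, the labelled groups need not be the groups that the study compared. The 3 libraries labelled siTOX4 had TOX4 at 5.86 (764 reads), 0.78 (19 reads) and 6.65 (1102 reads). The 3 labelled mock were at 6.16 (798 reads), 6.88 (1598 reads) and 6.10 (728 reads). The groups overlap, since the library labelled siTOX4 replicate 3 lies above 2 of the 3 labelled mock. The difference was -1.95 ± 1.09 (log2, SE; siTOX4 minus mock; limma adjusted p = 0.683 over all genes tested), and the library labelled siTOX4 replicate 2 decided it. Without that library it was -0.12.

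For TOX4P1 the 3 libraries labelled siTOX4 were at 2.54, -1.33 and 3.06 and those labelled mock at 2.68, 3.50 and 2.67. The difference was -1.53 ± 1.02 (limma adjusted p = 0.729), and -0.15 without the library labelled siTOX4 replicate 2. PPP1R10 differed by -0.08 ± 0.23 (adjusted p = 0.953), WDR82 by -0.12 ± 0.18 (adjusted p = 0.897) and PPP1CA by -0.32 ± 0.16 (adjusted p = 0.663). For all 5 genes the ranges of the 2 labelled groups overlapped. By this comparison 0 of the 5 genes passed the test (adjusted p under 0.05, with a change of 1 log2 unit or more either way), and 0% of the 15695 genes tested did. By limma, 1181 genes had an unadjusted p under 0.05.

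The same held for the other labels. The 14 labelled siRNAs gave 0 calls in 14 comparisons with mock, with 90 to 1405 genes at an unadjusted p under 0.05. An F test of limma over the 15 labels called 0% of genes, 241 had an unadjusted p under 0.05, and the adjusted p of each of the 5 genes was 0.997. These counts, and the differences and p-values by label given above, describe the labels and say nothing of what the siRNAs did.

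By label, the mean TOX4 level was lowest for siSAP130 (4.06 ± 3.34, SD, n = 3), siTGM5 (4.34 ± 3.06) and siTOX4 (4.43 ± 3.19), each of which holds 1 of the 3 very low libraries. The other 12 labels ran from siEIF3L (5.94 ± 0.06) to siCDK10 (6.43 ± 0.48), with mock at 6.38 ± 0.43. Neighbours in this order differed by less than the larger of their SDs. TOX4P1 had its lowest means in the same 3 labels (0.70 ± 3.36, 0.95 ± 2.97 and 1.42 ± 2.40), and the other 12 lay at 2.58 to 2.98. PPP1R10 means ran from 6.23 ± 0.46 (siTGM5) to 6.96 ± 0.17 (siCDK10), WDR82 means from 7.92 ± 0.36 (siCDK10) to 8.32 ± 0.015 (siCCNK), and PPP1CA means from 7.86 ± 0.22 (siTOX4) to 8.18 ± 0.21 (mock).

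**Figure D5:**
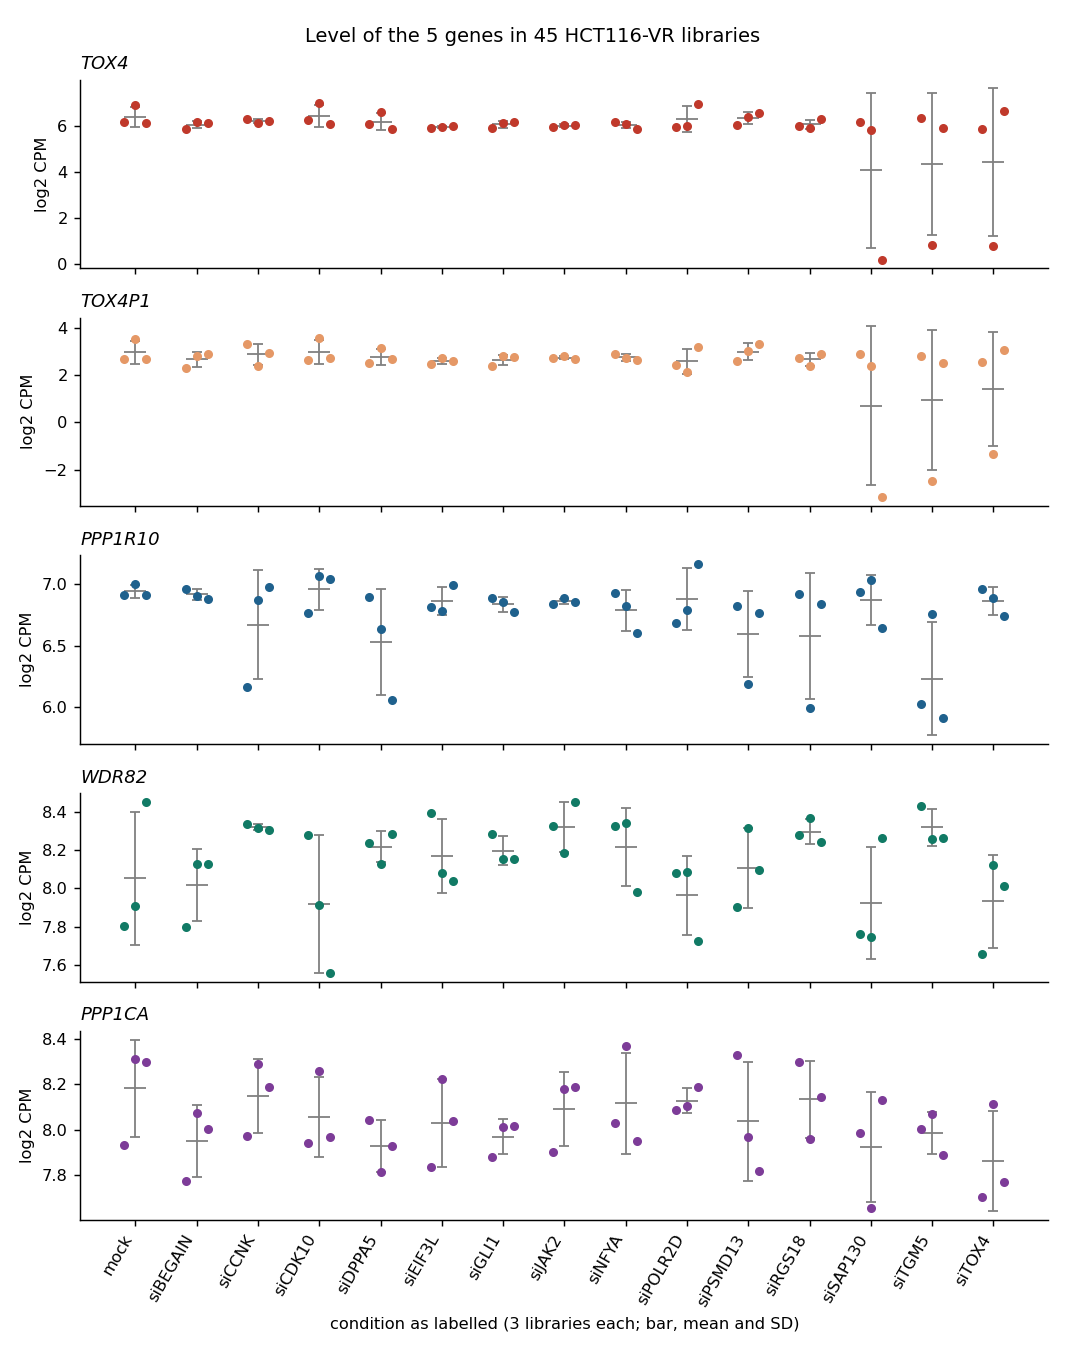
Points give the log2 CPM of each gene in each library, placed by the condition the library is labelled with, and grey bars give the mean and SD of the 3 libraries. In the TOX4 and TOX4P1 panels, 1 of the 3 libraries labelled siSAP130, siTGM5 and siTOX4 lies far below all others, while in the other panels libraries of most labels overlap.

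Related genes were examined by lists. In the TOX family, TOX and TOX3 are not among the listed genes, and TOX2 was at 4.16 to 5.79 (median 5.15). TOX2 was at 5.13, 5.51 and 5.15 in the 3 libraries with very low TOX4 (ranks 20, 36 and 22 from the lowest), within its range elsewhere. By label, TOX2 differed between siTOX4 and mock by 0.74 ± 0.31 (limma adjusted p = 0.631).

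Of the 6 genes of the PTW/PP1 complex, all are listed and 0 passed the test by label, with a median difference of -0.11 beside 0.02 over all genes tested. The 8 SET1 complex partners of WDR82, the 5 other nuclear regulators of PP1 and the 10 genes of elongation and termination are all listed. None of these genes passed either, with medians of -0.07, 0.07 and 0.06. By the same labels 0% of all 15695 genes tested passed, so these counts describe the labels and not the lists. The spread of these 3 lists over the 45 libraries was modest, with a median SD of 0.25, 0.23 and 0.31 beside 0.40 over all genes. No gene of these 3 lists fell below a log2 value of 3.99 in any library.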

How the data were processed

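The authors mapped single-end reads from poly-A RNA with TopHat (1.4.1 in the submitters' processing notes) on GRCh37, counted them with HTSeq on Ensembl release 67 and normalised them with Limma-Voom. They deposited log2 CPM values, with 0.5 reads added per count. Handling of reads with several matches is not given in the sources used here. Reads were recovered with a library's lowest value set to 0 reads, and 100% of values came within 0.001 of a whole read.

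Columns were tied to labels by the study's own sample list. Since the target genes went against it, labels were kept as names, and no library was regrouped by its values or its place in the matrix. The members and lists were chosen with earlier results of these data known.

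By label, lmFit and eBayes (trend) of limma 3.58.1 (R 4.3.3) were fitted to 45 libraries and 15695 genes that reached a log2 value of -1 in 3 or more libraries, with 30 residual degrees of freedom and Benjamini-Hochberg adjustment. The 5 genes all passed this filter. The p-values set a difference against the spread between libraries of a label, and by the target genes these libraries need not share a condition. The fit was tested on simulated data with correct labels, which does not show what it can detect under these labels. Named genes are the 5 members, their complex and family, and the 3 highest and 3 lowest by rho and 3 highest by r with TOX4. TOX4P1 was aligned to the canonical TOX4 transcript with Biopython 1.88 (local, match 2, mismatch -3, gap -6 and -1).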

Additional observations from a re-analysis of the deposited data

How the results depend on the processing

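By label, the differences of the 5 genes were recomputed under other filters, scalings, pseudocounts, controls and samples, and none of 75 values passed the test (lowest adjusted p = 0.43). The sign turned for PPP1R10 with the other siRNA libraries as the control (0.13), and for WDR82 without siTOX4 replicate 1 (0.02) and without mock replicate 3 (0.078), all within 1 SE of 0. Leaving out 1 of the 6 libraries in turn gave -3.06 to -0.12 for TOX4, -2.35 to -0.15 for TOX4P1, -0.13 to -0.02 for PPP1R10, -0.25 to 0.08 for WDR82 and -0.44 to -0.24 for PPP1CA. It gave 0 to 1 called genes. The 1 call, without siTOX4 replicate 3, was TMEM121B (-4.79, adjusted p = 0.0041, against 0.164 with all libraries), named after its values were seen. The F test over labels called 0 genes in all 52 alternatives. Like the main fits, these alternatives describe the labels and say nothing of what the siRNAs did. Deviations from the label means had a median correlation of 0.0003 over 315 same-numbered pairs (-0.57 to 0.83). Since libraries of a label were not each other's nearest, these correlations cannot show whether the replicate numbers pair the libraries. With a replicate block 0 genes were called, and the differences of TOX4 and PPP1R10 stayed at -1.95 and -0.08, with adjusted p = 0.685 and 0.954.

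Pearson's r in place of rho gave 0.99 for TOX4P1. The median absolute deviation in place of the SD gave 0.24 for TOX4, 0.29 for TOX4P1 and 0.12 for PPP1R10, and the SD of TOX4P1 was 0.72 on the log2(CPM + 1) scale. Counts of 1 to 4 reads limit what can be said of TOX4P1 in the 3 libraries with very low TOX4.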
